A study of Schizosaccharomyces pombe with 12 samples.

Results

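Transcript levels in a fission yeast strain that combines lesions in RNA 3′ processing and inositol pyrophosphate metabolism were compared with what the single mutants predict together. RNA was sequenced from 12 libraries of Schizosaccharomyces pombe in log phase at 30 °C in rich medium (YES), 3 libraries for each of 4 genotypes, and all 12 enter the comparison. The triple mutant carries asp1-H397A, ssu72-C13S and a deletion of aps1 (aps1∆); the other genotypes are the ssu72-C13S strain, the asp1-H397A strain and the wild type (WT). The labels give 1 strain number per genotype and do not say whether replicates were separate cultures, so p-values measure the spread between these libraries, which may be technical. For each gene the departure from additivity was the log2 level in the triple mutant, minus that in ssu72-C13S, minus that in asp1-H397A, plus that in WT. A positive departure means a triple mutant level above the product of the single-mutant changes, and a negative one a level below it. No strain with aps1∆ alone and no strain with both point mutations alone was analysed here, so the effect of the deletion and the effect of combining the alleles cannot be told apart.

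Ssu72 is a protein phosphatase of the cleavage and polyadenylation machinery that acts on the C-terminal domain of RNA polymerase II, and the C13S change is in its active site. Asp1 both makes inositol pyrophosphates with its kinase domain and removes them with its pyrophosphatase domain, where H397A lies, and Aps1 is another enzyme that removes inositol pyrophosphates. In fission yeast the phosphate acquisition genes pho1, pho84 and tgp1 are repressed in phosphate-rich medium by transcription of upstream long non-coding RNAs, and where that transcription ends sets how strongly they are repressed.

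Library totals ran from 23115806 to 29124916 counts, and the limit for a gene with 0 counts, taken as 3 counts, was 0.103 to 0.130 CPM, which covers counting error only. CPM are counts scaled to a common library size, here with TMM factors. The libraries asp1-H397A replicate 3 and triple mutant replicate 1 stood apart from the others of their genotype, and counts that lead a statement were also computed without them. Summed levels of 30 meiotic transcripts were low in every genotype: 204.8 to 207.5 CPM in the triple mutant, 178 to 181 CPM in ssu72-C13S, 166 to 175 CPM in asp1-H397A and 136 to 145 CPM in WT, beside 39400 to 99450 CPM, over all libraries, for 21 glycolysis and fermentation genes. Summed levels of 26 pheromone and mating genes were 1488 to 1762 CPM in the triple mutant, 1903 to 1927 CPM in ssu72-C13S, 1979 to 2295 CPM in asp1-H397A and 1815 to 1841 CPM in WT. Of these meiotic transcripts 3 departed positively (20.1% of all genes did) and 5 negatively (21.8% of all genes did).

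The targeted gene was examined first. The level of aps1 (SPAC13G6.14), a diadenosine hexaphosphate hydrolase in the annotation, was 37.8, 41.2 and 37.5 CPM in the triple mutant, 77.0, 79.4 and 77.3 CPM in ssu72-C13S, 108, 102 and 107 CPM in asp1-H397A, and 116, 119.7 and 102 CPM in WT. Every triple mutant library lay below every other library, but reads assigned to aps1 remained in all of them. The departure of aps1 was −0.91 (SE 0.0976, edgeR adjusted p 9.59e-06). The largest positive departure of any gene tested belonged to SPNCRNA.620 (8.61, SE 0.533, edgeR adjusted p 1.12e-07), the non-coding RNA annotated on the strand opposite aps1, a gene singled out after its values were seen. It stood at 12.5, 8.22 and 9.94 CPM in the triple mutant, 0.103, 0.217 and 0.432 CPM in ssu72-C13S, 0.173, 0.0406 and 0.238 CPM in asp1-H397A, and 1.28, 1.58 and 1.67 CPM in WT. Reads from the altered aps1 locus and a change of this RNA cannot be told apart in counts per gene, and with both single mutants near the limit of detection the size of its departure is uncertain. The asp1 transcript did not depart past the threshold (0.10, SE 0.0905, edgeR adjusted p 0.378). The ssu72 transcript departed by 0.66 (SE 0.204, edgeR adjusted p 0.0197), a call that was lost without ssu72-C13S replicate 1 (adjusted p 0.05002).

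Departures were common. Of 6189 genes tested 2591 departed from additivity (41.9%) at an edgeR adjusted p under 0.05, 1241 positively (20.1%) and 1350 negatively (21.8%). A departure of at least 2-fold was called for 585 genes (9.45%), 268 positive (4.33%) and 317 negative (5.12%). The smallest called departures inside the 2-fold limit were those of spf31 (1.002), cig2 (−1.004) and SPNCRNA.1269 (1.004), and the largest outside it those of pep3 (0.9975), rad1 (0.9947) and SPNCRNA.685 (0.9942). On the linear CPM scale, 8 of the 585 genes had a departure of the other sign. Without the libraries that stood apart, 3739 genes departed.

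The 585 genes were sorted by where the triple mutant stood. In reversal, a single-mutant change of at least 2-fold was opposed so far that the triple mutant was called on the other side of WT. In synergy, genes not in reversal had the triple mutant called beyond WT and beyond both single mutants in the direction of the departure. Of the reversal genes 25, pho1 and hsp16 among them, also met this but were counted in reversal only. In masking, genes in neither of those classes had a single-mutant change of at least 2-fold that was lost (102 genes), reduced (89) or not added to (55). Of these 55, pfl3 and SPAC1039.02 were called beyond that single mutant. Reversal held 64 genes (1.03% of genes tested), synergy 151 (2.44%) and masking 246 (3.97%), and 124 (2.00%) were left unclassified, 110 of them with an opposed single-mutant change under 2-fold. Without the libraries that stood apart the counts were 73, 156 and 264 genes, and 59, 137 and 211 of the genes kept their class. Leaving out each of the 12 libraries in turn, 39 of 64 reversal genes, 93 of 151 synergy genes and 164 of 246 masking genes kept their class every time. Because the classes are cut from the same contrasts, values within them are descriptions.

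**Figure D1:**
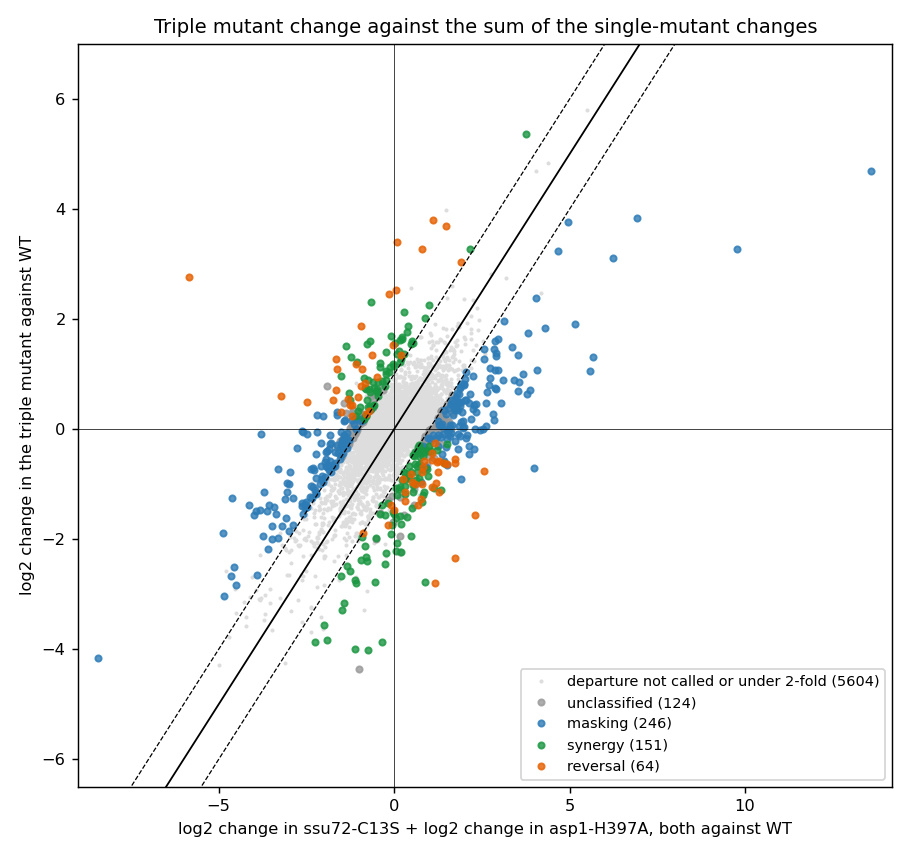
Each point is a gene: the x axis is the sum of its log2 changes in ssu72-C13S and asp1-H397A against WT, and the y axis its log2 change in the triple mutant against WT; the solid line is additivity and the dashed lines a 2-fold departure. All 3 changes share the WT libraries; masking (246), reversal (64) and synergy (151) genes all lie outside the dashed lines, and the rightmost point is SPAC186.06, which had 0 counts in all WT libraries.

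The change that was opposed came mostly from ssu72-C13S. In reversal it was the ssu72-C13S change for 55 genes, the asp1-H397A change for 8 and both for 1, which is SPNCRNA.620. In masking it was the ssu72-C13S change for 162 genes, the asp1-H397A change for 34 and both for 50. The triple mutant was nearer to asp1-H397A than to ssu72-C13S on the log2 scale in 55 of 64 reversal genes, 116 of 151 synergy genes and 189 of 246 masking genes. The triple mutant was not called against asp1-H397A in 164 masking genes and not called against ssu72-C13S in 59. Reversal and masking need an opposed single-mutant change, mostly that of ssu72-C13S, so these counts follow in part from the sorting. The share of all genes nearer to asp1-H397A was not computed. Over all genes tested, the triple mutant was called against asp1-H397A for 36.8% (4.88% at 2-fold), against ssu72-C13S for 56.3% (12.4% at 2-fold) and against WT for 51.9% (11.4% at 2-fold). Against WT, ssu72-C13S was called for 54.7% (9.19% at 2-fold) and asp1-H397A for 44.4% (6.74% at 2-fold).

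Reversal with a positive departure held phosphate acquisition genes. In bulk RNA, fewer cells with a transcript and less of it per cell cannot be told apart, here or below. The acid phosphatase gene pho1 (SPBP4G3.02) stood at 19160, 24030 and 23620 CPM in the triple mutant, 372, 394 and 358 CPM in ssu72-C13S, 13220, 13540 and 10810 CPM in asp1-H397A, and 2107, 2054 and 2189 CPM in WT. No 2 genotypes overlapped: ssu72-C13S lay below WT, asp1-H397A above it and the triple mutant highest. The product of the single-mutant changes would be 2217 CPM, close to WT, and the observed level was 10.1-fold above it (departure 3.33, SE 0.159, edgeR adjusted p 2.36e-08). The phosphate transporter gene pho84 (SPBC8E4.01c) stood at 4961, 6083 and 5959 CPM in the triple mutant, 218, 220.1 and 206 CPM in ssu72-C13S, 4675, 4891 and 3920 CPM in asp1-H397A, and 992, 1038 and 1066 CPM in WT. For this gene the triple mutant libraries all lay above those of asp1-H397A, by 0.33 on the log2 scale between genotypes (edgeR adjusted p 0.0155), and the departure was 2.60 (SE 0.140, edgeR adjusted p 3.36e-08). The small ecl3 gene (SPBC8E4.12c) departed by 2.69 (SE 0.224, edgeR adjusted p 1.21e-06), with 70.3 to 87.3 CPM in the triple mutant, 1.48 to 2.47 CPM in ssu72-C13S, 33.5 to 41.4 CPM in asp1-H397A and 5.43 to 6.16 CPM in WT. In tgp1 (SPBC1271.09), the glycerophosphodiester transporter gene, the ssu72-C13S decrease was below 2-fold and the gene fell under synergy, with 734, 827 and 768 CPM in the triple mutant, 11.8, 13.6 and 11.2 CPM in ssu72-C13S, 424, 416 and 357 CPM in asp1-H397A and 19.9, 18.3 and 18.6 CPM in WT. Its departure was 1.60 (SE 0.124, edgeR adjusted p 6.58e-07).

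The rest of the phosphate list departed less, although SPBPB2B2.06c had a large change. It stood at 658, 735 and 763 CPM in the triple mutant, 49.3, 45.2 and 49.0 CPM in ssu72-C13S, 165, 157 and 148 CPM in asp1-H397A, and 11.5, 14.1 and 13.1 CPM in WT. Both single mutants lay above WT and their product, 584 CPM, was close to the triple mutant (departure 0.30, SE 0.116, edgeR adjusted p 0.0496). This gene was named after its values were seen. Of 13 phosphate acquisition and storage genes 6 departed positively (20.1% of all genes did) and 3 negatively (21.8% did), with a median departure of 0.17 against 0.04 over all genes. The non-coding RNA prt2, which lies upstream of pho84 and represses it, departed by 0.65 (SE 0.107, edgeR adjusted p 3.36e-04): it stood at 18.9 to 19.9 CPM in the triple mutant, 33.1 to 34.8 CPM in ssu72-C13S, 11.3 to 12.2 CPM in asp1-H397A and 32.1 to 33.7 CPM in WT. The annotation overlaps prt2 and pho84 on the same strand, so reads near their junction are uncertain. The transcription factor gene pho7 departed negatively (−0.47, SE 0.108, edgeR adjusted p 0.00369), and vtc4 of polyphosphate synthesis did not depart past it (−0.03).

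**Figure D2:**
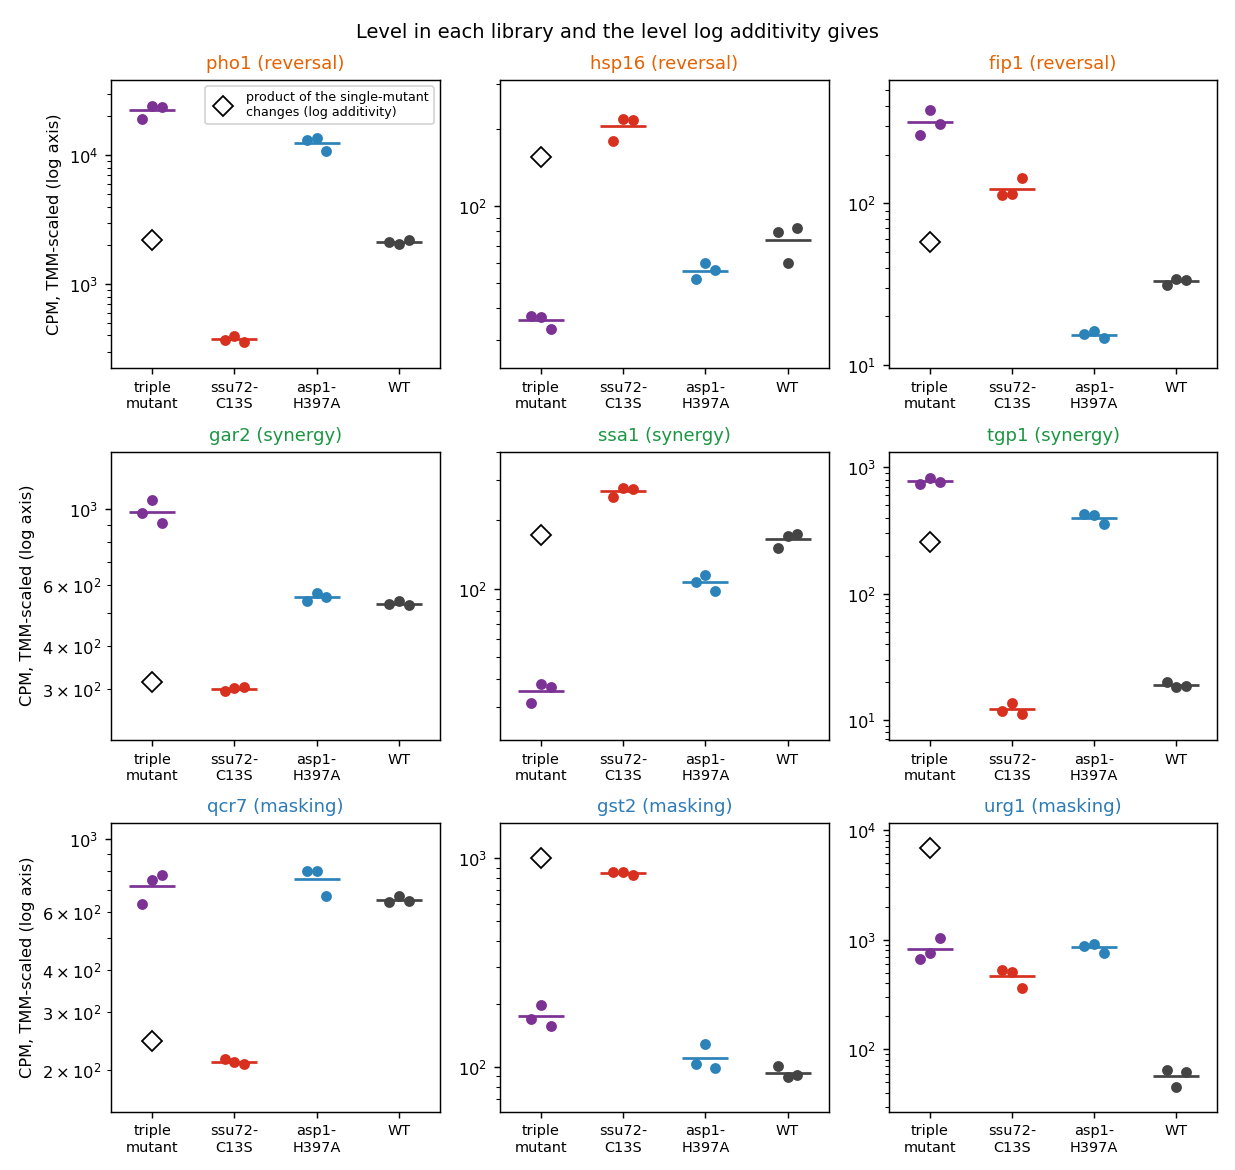
Level of 9 genes in each library (points, CPM on a log axis), with the mean of 3 libraries as a bar and, as an open diamond, the level that multiplying both single-mutant changes would give in the triple mutant. In the upper row the triple mutant lies on the other side of WT from a single mutant, in the middle row it lies beyond all other genotypes, and in the lower row a single-mutant change is lost (qcr7), reduced (gst2) or not added to (urg1).

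In iron uptake genes the opposed change was the other one, with asp1-H397A as the opposed change. The iron permease gene fip1 (SPAC1F7.07c) stood at 266, 381 and 310.2 CPM in the triple mutant, 113, 114 and 143 CPM in ssu72-C13S, 15.4, 16.2 and 14.6 CPM in asp1-H397A, and 31.4, 34.2 and 33.4 CPM in WT. The triple mutant lay above ssu72-C13S in every library, although the decrease in asp1-H397A would place the product of the changes at 57.7 CPM (departure 2.47, SE 0.176, edgeR adjusted p 3.49e-07). Its partner oxidase gene fio1 (SPAC1F7.08) departed by 2.21 (SE 0.194, edgeR adjusted p 1.91e-06), and the siderophore-iron transporter gene str1 by 1.12 (SE 0.205, edgeR adjusted p 7.06e-04). Unlike fip1, str1 was lower in the triple mutant than in ssu72-C13S (log2 −0.40, edgeR adjusted p 0.0172), and its departure was negative on the linear scale (−45.4 CPM). These were 3 of the 8 reversal genes in which asp1-H397A was opposed. The list as a whole had no common direction. Of 17 iron uptake and regulator genes 6 (35.3%) departed positively and 6 (35.3%) negatively, against 20.1% and 21.8% of all genes. Among the negative ones were the ferric reductase genes frp1 (−0.97) and frp2 (−1.58, masking). The iron-responsive repressor gene fep1 did not depart past the threshold (−0.25).

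Reversal with a negative departure held stress genes that were high in ssu72-C13S and below WT in the triple mutant. The small heat shock protein gene hsp16 (SPBC3E7.02c) stood at 37.0, 36.9 and 33.2 CPM in the triple mutant, 180.5, 219 and 217 CPM in ssu72-C13S, 52.0, 59.7 and 56.2 CPM in asp1-H397A, and 79.2, 59.8 and 82.4 CPM in WT. The triple mutant libraries were the lowest of all 12, and the asp1-H397A and WT libraries lay close, with 59.7 and 59.8 CPM as the nearest values. Its departure was −2.13 (SE 0.162, edgeR adjusted p 6.00e-07). The metallothionein gene zym1 (−1.28, SE 0.152, edgeR adjusted p 2.31e-05), ssd2 of succinate semialdehyde oxidation (−2.35, SE 0.169, edgeR adjusted p 3.74e-07) and the short chain dehydrogenase gene SPCC663.08c (−2.29, SE 0.243, edgeR adjusted p 9.08e-06) had the same form. The ssu72-C13S increase of zym1 lay at the 2-fold limit (log2 1.002), and zym1 kept its class in 15 of 20 other fits. Non-coding RNAs made up 26 of the 64 reversal genes. SPNCRNA.1298 fell to 1.94, 2.02 and 3.02 CPM in the triple mutant, against 16.4, 16.5 and 16.0 CPM in ssu72-C13S, 5.55, 5.64 and 5.64 CPM in asp1-H397A and 4.42, 3.62 and 3.73 CPM in WT, a departure of −3.33 (SE 0.202, edgeR adjusted p 9.53e-08). In the positive direction SPNCRNA.944 departed by 2.83 (SE 0.228, edgeR adjusted p 8.84e-07) and rrk1, the RNA of RNase P, by 2.99 (SE 0.233, edgeR adjusted p 6.77e-07). The libraries were poly(A)-selected and rrk1 stood at 1.05 to 9.85 CPM over all of them, so its level counts only molecules captured that way. In 43 reversal genes the other single mutant was called in the direction of the triple mutant, and in 21 neither single mutant was; SPNCRNA.1298, SPNCRNA.944, rrk1, ssd2 and SPCC663.08c belong to the 21.

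Synergy with a negative departure was marked by molecular chaperones, which refold or hold unfolded proteins. The Hsp70 gene ssa1 (SPAC13G7.02c) stood at 31.3, 38.2 and 36.9 CPM in the triple mutant, 252, 276 and 273 CPM in ssu72-C13S, 107, 115 and 97.6 CPM in asp1-H397A, and 151, 170.3 and 174 CPM in WT. No 2 genotypes overlapped, and the triple mutant was 4.87-fold below the 173 CPM that the single-mutant changes give (departure −2.28, SE 0.122, edgeR adjusted p 3.36e-08). The disaggregase gene hsp104 (SPBC16D10.08c) stood at 38.9, 35.1 and 38.9 CPM in the triple mutant, 133, 140.5 and 155 CPM in ssu72-C13S, 85.3, 91.4 and 89.9 CPM in asp1-H397A, and 77.7, 87.7 and 85.2 CPM in WT. Here asp1-H397A and WT overlapped, ssu72-C13S lay above both and the triple mutant below both (departure −2.01, SE 0.106, edgeR adjusted p 3.36e-08). The co-chaperone gene psi1 departed by −1.78 (SE 0.0773, edgeR adjusted p 1.53e-08). All 3 genes were called above WT in ssu72-C13S, by 0.70 (ssa1), 0.77 (hsp104) and 0.82 (psi1) on the log2 scale. These increases were under 2-fold, so only the fold minimum kept the 3 genes out of reversal. Of 21 heat shock chaperone genes 17 departed negatively, against 21.8% of all genes, and 3 positively, with a median of −0.96; 9 were in synergy and hsp16 in reversal. In the triple mutant 15 of the 21 were lower than WT (25.7% of all genes were), whereas in ssu72-C13S 14 were higher than WT (25.5% of all genes were). The exceptions with a positive departure were hsf1, ssc1 and sks2. The counts of departures and classes of chaperone genes were the same without the libraries that stood apart.

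The core stress response list followed the chaperones in direction and was spread over all classes. Of 34 genes 23 departed negatively (21.8% of all genes did) and 1, ecl3, positively (20.1% of all genes), with a median of −0.71. Without the libraries that stood apart 4 were positive and 23 negative. Summed levels of the list were 10440 to 13380 CPM in the triple mutant, 20060 to 20430 CPM in ssu72-C13S, 10920 to 13670 CPM in asp1-H397A and 10360 to 10900 CPM in WT. The ssu72-C13S libraries had the highest sums. The catalase gene ctt1, with 77.3 to 107 CPM in the triple mutant, 338 to 374 CPM in ssu72-C13S, 237 to 296 CPM in asp1-H397A and 297 to 341 CPM in WT, fell under synergy (−1.68, SE 0.155, edgeR adjusted p 2.79e-06). Trehalose enzymes went the same way: tps1, which makes trehalose phosphate, departed by −1.55 (edgeR adjusted p 5.05e-07) and the trehalase gene ntp1 by −1.31 (edgeR adjusted p 2.09e-07). The gene lists overlap: hsp16 and hsp9 belong to both stress lists and ecl3 also to the phosphate list. Outside the naming rule, rtc3, an SBDS family gene chosen after its values were seen, is among the 6 synergy genes in which both single mutants were called in the direction of the triple mutant. It stood at 21.7, 20.4 and 22.6 CPM in the triple mutant, 254, 233 and 241 CPM in ssu72-C13S, 110.1, 109.9 and 95.6 CPM in asp1-H397A, and 297, 326 and 305 CPM in WT (departure −1.93, SE 0.0994, edgeR adjusted p 3.20e-08). In 94 of the 151 synergy genes a single mutant was called on the other side of WT, ssu72-C13S in 85 and asp1-H397A in 24, and in 32 neither single mutant was called.

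Synergy with a positive departure held genes of ribosome production, although most members of the ribosome lists were in no class. The nucleolin gene gar2 (SPAC140.02), needed for rRNA processing and not a member of the list below, stood at 976, 1059 and 911 CPM in the triple mutant, 296, 303 and 305 CPM in ssu72-C13S, 541, 570.2 and 554 CPM in asp1-H397A, and 528, 539 and 526 CPM in WT. The triple mutant libraries were the highest and ssu72-C13S the lowest, while asp1-H397A lay just above WT (departure 1.64, SE 0.0876, edgeR adjusted p 3.36e-08). The ssu72-C13S decrease of gar2 was called but under 2-fold (log2 −0.82), so only the fold minimum kept it out of reversal. Of 90 ribosome biogenesis genes 65 departed positively, against 20.1% of all genes, and 0 negatively, by edgeR or DESeq2 or at an unadjusted p under 0.05. Without the libraries that stood apart 1 was negative. Their median departure was 0.61. Of the 90, 4 were in synergy (2.44% of all genes were) and 9 unclassified (2.00% of all genes were), with none in masking or reversal. The synergy count was 12 without asp1-H397A replicate 3, 7 without triple mutant replicate 3, and 2 without WT replicate 2 or triple mutant replicate 1. Without asp1-H397A replicate 3 or WT replicate 2, 1 gene was in masking. Of the same 90, 53 were lower in ssu72-C13S than in WT (29.1% of all genes were), and 26 were higher in the triple mutant than in WT (26.2% of all genes were). The largest departure in the list was that of llp1 (1.5, SE 0.195, edgeR adjusted p 5.19e-05), with 311, 248 and 209 CPM in the triple mutant, 127, 129 and 136 CPM in ssu72-C13S, 138, 124 and 174 CPM in asp1-H397A, and 234, 197 and 199 CPM in WT. The triple mutant and WT overlapped, and the highest triple mutant and asp1-H397A values came from the libraries that stood apart.

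Cytosolic ribosomal protein genes departed in the same direction by smaller amounts. Of 141 genes 82 departed positively (20.1% of all genes did) and 1 negatively, with a median of 0.34, and 9 were in synergy (2.44% of all genes were). These counts leaned on single libraries. Without triple mutant replicate 2, 49 were positive and 2 in synergy. Without asp1-H397A replicate 1, 54 were positive, and without WT replicate 2, 2 were negative. For rpl13 (SPAC664.05) the levels were 4359, 5172 and 4878 CPM in the triple mutant, 1465, 1463 and 1502 CPM in ssu72-C13S, 3921, 4069 and 3379 CPM in asp1-H397A, and 2940, 2878 and 2816 CPM in WT. The order was the same in every library, the triple mutant highest and ssu72-C13S lowest (departure 1.3, SE 0.121, edgeR adjusted p 3.06e-06). The ssu72-C13S decrease of rpl13 (log2 −0.96) was also just under the 2-fold that reversal needs. Many ribosomal protein genes have a near-identical copy, so counts of single genes are uncertain where reads could be shared. The nuclear exosome and Mmi1 elimination list, which clears meiotic transcripts, had 10 of 26 genes with a positive departure (20.1% of all genes did). Its median was 0.32, and 0 genes departed negatively by edgeR, by DESeq2 or at an unadjusted p under 0.05 (21.8% of all genes did by edgeR). Of the 26, 20 were positive without asp1-H397A replicate 3, 21 without both libraries that stood apart, and 6 without WT replicate 1 or ssu72-C13S replicate 1 or 2.

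**Figure D3:**
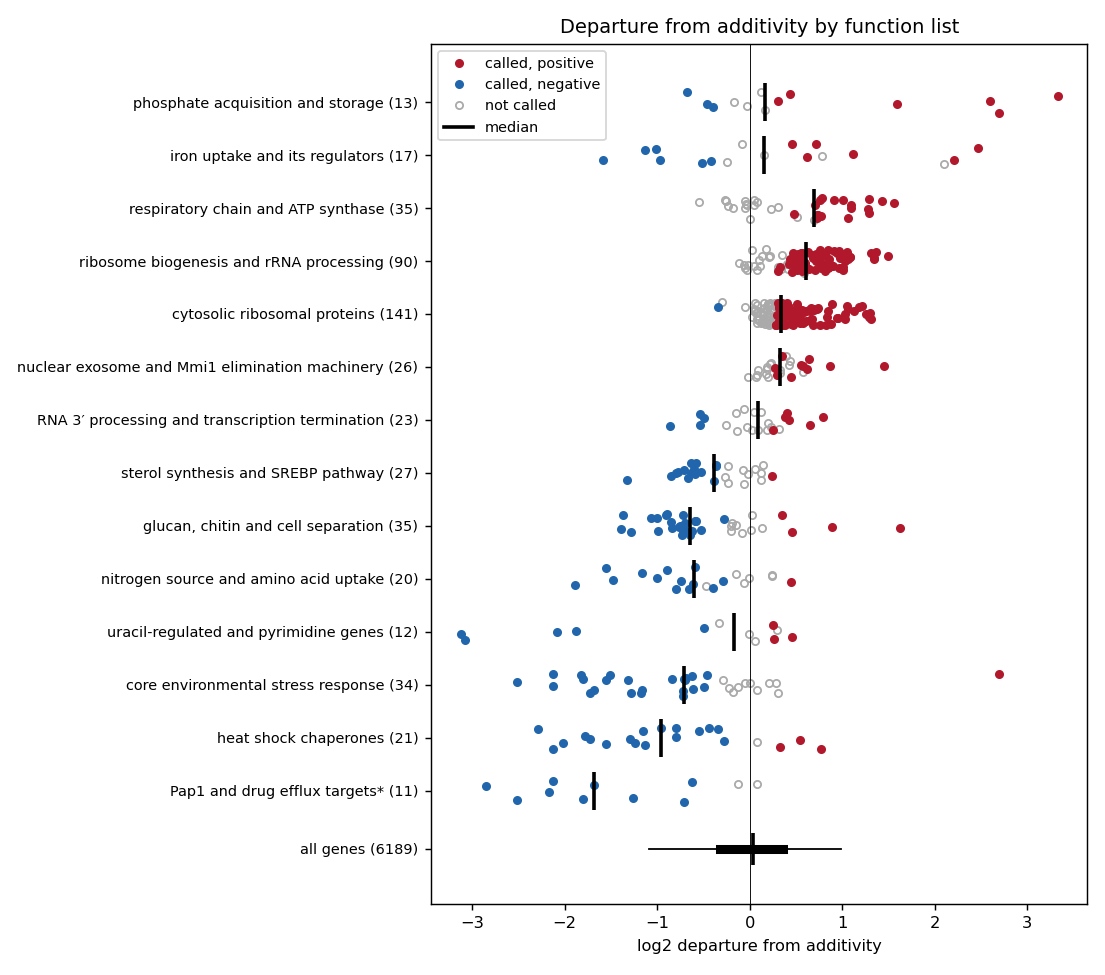
Departure from additivity (log2) of each tested member of 14 function lists, with the number tested in brackets, called members filled and the median as a black bar; the lowest row gives the median, interquartile range and 5th to 95th percentile of all 6189 genes. The asterisk marks a list put together after values were seen. Ribosome and respiratory lists lie to the right of all genes, chaperone, core stress and efflux lists to the left.

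Further synergy genes were cell surface, transport and non-coding genes. The flocculin gene pfl7 (SPBC359.04c), a cell surface glycoprotein of the DIPSY family, fell to 0.465, 0.818 and 1.04 CPM in the triple mutant, against 5.76, 5.66 and 5.08 CPM in ssu72-C13S, 19.0, 17.4 and 17.3 CPM in asp1-H397A and 12.6, 10.3 and 10.8 CPM in WT. No 2 genotypes overlapped (departure −3.51, SE 0.239, edgeR adjusted p 2.56e-07). Flocculin and adhesin genes were split over the classes: pfl9 was in reversal (1.81, SE 0.162, edgeR adjusted p 2.16e-06), pfl6 was in synergy, pfl8 was in masking (−1.39) and so was pfl3 (−1.17). The triple mutant level of pfl9 was only 0.30 above WT on the log2 scale, and pfl9 kept its class in 14 of 20 other fits. Of the 13 genes on the list 9 departed negatively (21.8% of all genes did) and 2 positively (20.1% of all genes did). For pfl3 the levels were 495, 640.5 and 506 CPM in the triple mutant, 169, 175 and 184 CPM in ssu72-C13S, 253, 342 and 251 CPM in asp1-H397A, and 39.5, 40.5 and 40.7 CPM in WT. The triple mutant lay above both single mutants, and the departure was positive on the linear scale (129.5 CPM), so the increase was added to, by less than the product. The zinc transporter gene zrt1 was in synergy, with 197 to 225 CPM in the triple mutant, 379 to 544 CPM in ssu72-C13S, 504 to 719.5 CPM in asp1-H397A and 237 to 379.7 CPM in WT (departure −2.03, SE 0.249, edgeR adjusted p 3.09e-05). The spa2 gene, annotated as a GTPase-activating protein, departed by 1.62 (SE 0.114, edgeR adjusted p 3.36e-07), the pyridoxine transporter gene SPCC576.17c by −2.45 (SE 0.157, edgeR adjusted p 1.44e-07), and the non-coding RNA SPNCRNA.1276 by 1.84 (SE 0.144, edgeR adjusted p 7.04e-07). Synergy genes were more abundant than the other classes, with a median of 16.4 CPM against 7.27 CPM for reversal and 5.34 CPM for masking, and all stood below the 49.5 CPM of all genes tested.

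Masking with a positive departure held genes of the respiratory chain, whose complexes pass electrons to oxygen in mitochondria. The complex III gene qcr7 (SPCC737.02c) stood at 634, 751 and 777 CPM in the triple mutant, 216, 212 and 208 CPM in ssu72-C13S, 797, 799.7 and 669 CPM in asp1-H397A, and 643, 670.5 and 647 CPM in WT. The ssu72-C13S libraries were apart from all others, and the triple mutant overlapped both asp1-H397A and WT (departure 1.56, SE 0.120, edgeR adjusted p 6.38e-07). The cytochrome c oxidase gene cox5 followed with 354, 424 and 417 CPM in the triple mutant, 148, 136 and 138 CPM in ssu72-C13S, 421, 437 and 362 CPM in asp1-H397A, and 333, 365 and 353 CPM in WT (departure 1.28, SE 0.119, edgeR adjusted p 3.01e-06). Of 35 respiratory chain and ATP synthase genes 18 departed positively (20.1% of all genes did) and 0 negatively by edgeR, with a median of 0.69; at an unadjusted p under 0.05 2 were negative, and by DESeq2 1. In the triple mutant 11 of the 35 were higher than WT, a share near the 26.2% of all genes, and 2 lower. In ssu72-C13S 22 were lower than WT (29.1% of all genes were). Of the list 7 genes were in masking and 2, rip1 and qcr2, in reversal. Without the libraries that stood apart this balance turned: 22 departed positively and 4 negatively, 6 were in reversal and 2 in masking, and the split also moved with other libraries, with 0 in reversal without WT replicate 1 or 3 or triple mutant replicate 2 or 3, and 4 in masking without asp1-H397A replicate 3. Genes of the same pathway outside the list, seen only after their values, included the cytochrome c1 gene cyt1 (departure 1.69, reversal), the cytochrome c gene cyc1 (1.11, masking) and the external NADH dehydrogenase gene nde1 (1.86, reversal).

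Masking with a negative departure held genes of oxidative stress defence and drug efflux that were high in ssu72-C13S. The glutathione S-transferase gene gst2 (SPCC965.07c) stood at 170.0, 198 and 157 CPM in the triple mutant, 859, 861 and 829 CPM in ssu72-C13S, 103, 129 and 99.0 CPM in asp1-H397A, and 100.5, 89.4 and 91.0 CPM in WT. The triple mutant lay above asp1-H397A and WT but far under ssu72-C13S (departure −2.52, SE 0.142, edgeR adjusted p 5.15e-08). The spermine transporter gene caf5 and the brefeldin A efflux gene bfr1 departed by −2.85 (SE 0.164, edgeR adjusted p 5.76e-08) and −2.17 (SE 0.136, edgeR adjusted p 1.23e-07), the quinone reductase gene obr1 by −2.13 (SE 0.251, edgeR adjusted p 2.25e-05) and the sulfiredoxin gene srx1 by −1.80 (SE 0.164, edgeR adjusted p 2.53e-06). A list of 11 targets of the oxidative stress factor Pap1 and drug efflux genes was put together after values were seen. It had 9 negative departures (21.8% of all genes did) and 5 members in masking. There were 0 positive departures by edgeR, by DESeq2 or at an unadjusted p under 0.05 (20.1% of all genes by edgeR). The pap1 gene itself did not depart past the threshold (−0.12). The alcohol dehydrogenase gene adh8 was an example of complete loss: it stood at 12.1, 9.81 and 10.2 CPM in the triple mutant, 62.6, 66.0 and 57.3 CPM in ssu72-C13S, 9.23, 10.6 and 12.5 CPM in asp1-H397A, and 10.8, 9.43 and 12 CPM in WT. Here the triple mutant, asp1-H397A and WT overlapped (departure −2.54, SE 0.183, edgeR adjusted p 3.74e-07).

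A different form of masking appeared in the uracil-regulated genes urg1, urg2 and urg3. Both single mutants had a large increase, and the triple mutant did not add to the larger of them. The uracil phosphoribosyltransferase gene urg2 (SPAC1002.17c) stood at 914, 1069 and 1473 CPM in the triple mutant, 1147, 1115 and 787 CPM in ssu72-C13S, 1360, 1410 and 1184 CPM in asp1-H397A, and 152, 112 and 136 CPM in WT. The triple mutant overlapped both single mutants and all 3 lay above WT; the product of the single-mutant changes would be 10020 CPM (departure −3.12, SE 0.252, edgeR adjusted p 8.84e-07). Its neighbours urg3 and urg1 departed by −1.88 (SE 0.161, edgeR adjusted p 1.54e-06) and −3.08 (SE 0.258, edgeR adjusted p 1.28e-06). For urg1 the triple mutant was called above ssu72-C13S (log2 0.82, edgeR adjusted p 0.00141) but not against asp1-H397A. The gene uck2, also annotated as a uracil phosphoribosyltransferase, departed by −2.08 (SE 0.131, edgeR adjusted p 1.26e-07). Its increase was reduced, with the triple mutant called below asp1-H397A (log2 −0.57, edgeR adjusted p 3.34e-04) and above ssu72-C13S (log2 0.23). The remaining pyrimidine genes moved little. Of 12 on the list 5 departed negatively (21.8% of all genes did) and 3 positively (20.1% of all genes did), and the synthesis gene ura3 did not depart past the threshold (0.29). In all, 126 of the 585 genes had all 3 mutants called on the same side of WT, in 120 of these the departure opposed the shared change, and in 42 the triple mutant was not called against either single mutant. For such genes the departure measures that the shared change was not summed. Of the 55 masking genes whose change was not added to, 44 had a positive departure, and in 12 of them the level that additivity gives was below the 0.130 CPM that a count of 0 allows; the part of the detection limit in these was not tested.

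Large negative departures in masking included a subtelomeric run of 3 neighbours, SPAC186.04c (−4.53), gdt1 and SPAC186.06, the last of which had 0 counts in all WT libraries, so that no size is given for it. The gdt1 gene (SPAC186.05c), annotated as a GDT1-like protein, stood at 6.47, 4.74 and 8.31 CPM in the triple mutant, 127, 125 and 119.9 CPM in ssu72-C13S, 3.60, 3.77 and 2.26 CPM in asp1-H397A, and 0.427, 1.06 and 0.543 CPM in WT. No 2 genotypes overlapped, and the increase in ssu72-C13S was largely absent from the triple mutant (departure −6.51, SE 0.367, edgeR adjusted p 5.15e-08). The meiotic non-coding RNA omt3 was low in every mutant, with 1.40, 0.732 and 1.24 CPM in the triple mutant, 0.549, 0.544 and 0.612 CPM in ssu72-C13S, 2.17, 1.78 and 2.1 CPM in asp1-H397A and 22.3, 20.0 and 17.7 CPM in WT. Its departure of 4.28 (SE 0.307, edgeR adjusted p 3.59e-07) is set against an additive level of 0.0577 CPM, below the limit that a count of 0 allows. The meiosis regulator gene mei2, next to omt3 in gene order but for SPNCRNA.993, departed by 1.45 (SE 0.165, edgeR adjusted p 1.67e-05). The aldo/keto reductase gene SPAC750.01 stood at 0.549, 0.603 and 0.940 CPM in the triple mutant, 57.8, 5.91 and 7.92 CPM in ssu72-C13S, 0.910, 0.730 and 0.913 CPM in asp1-H397A, and 1.16, 0.844 and 1.40 CPM in WT, with 1 ssu72-C13S library far above the others (departure −4.71, SE 1.5, edgeR adjusted p 0.0224). Without ssu72-C13S replicate 1 it was −2.92 (adjusted p 1.18e-04), and without asp1-H397A replicate 3 the call was lost (adjusted p 0.0555).

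**Figure D4:**
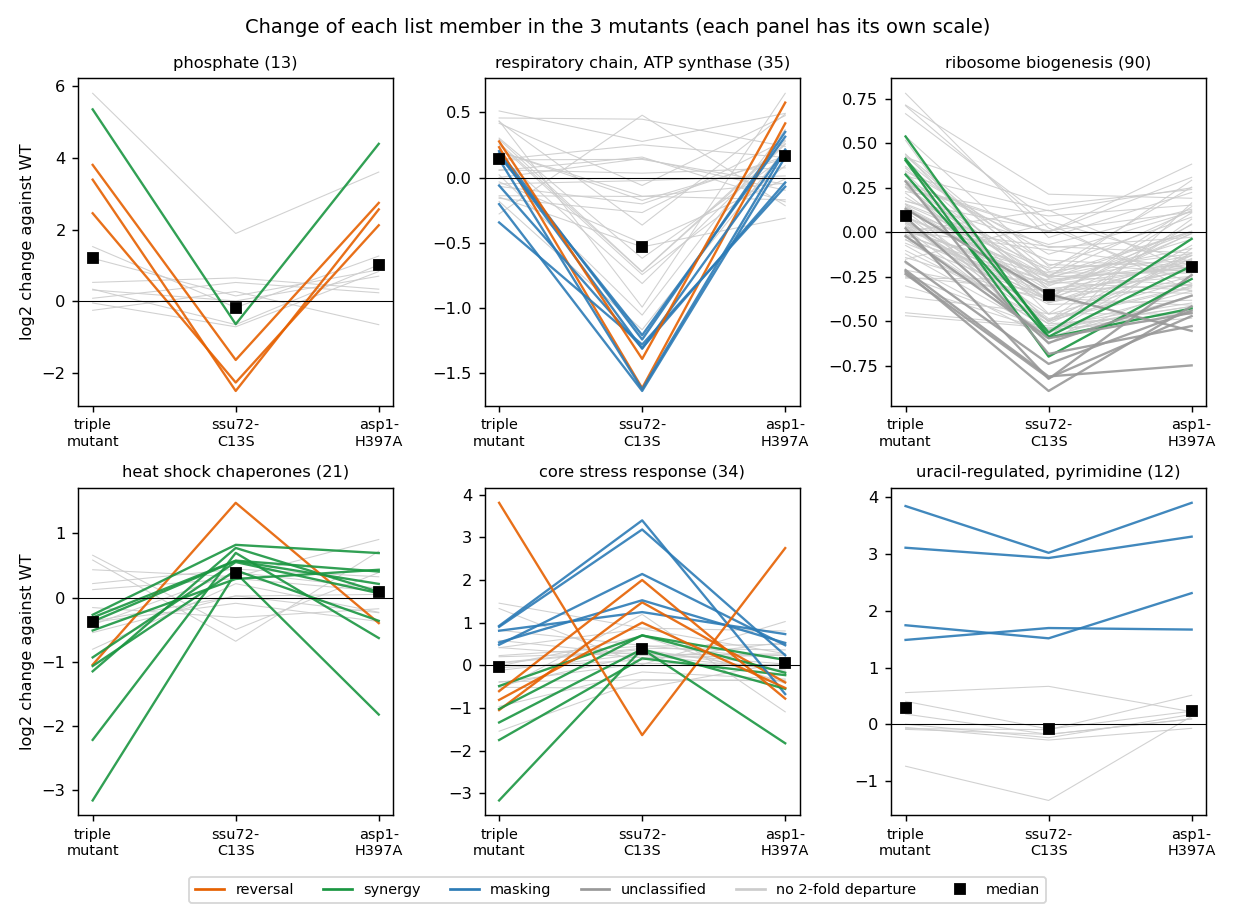
Log2 change against WT of every tested member of 6 function lists in the triple mutant, ssu72-C13S and asp1-H397A, 1 line per gene coloured by class, black squares marking medians; the scales differ between panels and the 3 changes share the WT libraries. Of 13 phosphate genes 7 were lower and 3 higher than WT in ssu72-C13S and 10 higher in the triple mutant, 22 of 35 respiratory and 53 of 90 ribosome biogenesis genes were lower in ssu72-C13S, and of 21 chaperone genes 14 were higher in ssu72-C13S and 15 lower in the triple mutant. Of all genes tested, 29.1% were lower and 25.5% higher than WT in ssu72-C13S. In the triple mutant 25.7% were lower and 26.2% higher.

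Nitrogen source genes mixed the classes. The proline permease gene put4 (SPAC869.10c) rose in both single mutants and not in the triple mutant: it stood at 29.7, 32.1 and 43.1 CPM in the triple mutant, 61.2, 56.9 and 48.9 CPM in ssu72-C13S, 88.6, 92.2 and 78.6 CPM in asp1-H397A, and 39.3, 35.6 and 36.3 CPM in WT. Triple mutant and WT libraries overlapped (departure −1.89, SE 0.180, edgeR adjusted p 3.59e-06). The oligopeptide transporter gene isp4 stood at 82.7 to 106 CPM in the triple mutant, 42 to 50.8 CPM in ssu72-C13S, 376 to 437 CPM in asp1-H397A and 64.4 to 82.6 CPM in WT (departure −1.48, SE 0.154, edgeR adjusted p 8.06e-06). Of 20 nitrogen source and amino acid uptake genes 13 departed negatively, against 21.8% of all genes, and 1 positively, against 20.1%. None was positive without WT replicate 1 or 3, ssu72-C13S replicate 1 or 3, or triple mutant replicate 2 or 3. Negative departures, called for 21.8% of all genes, also outnumbered positive ones in other lists. Of 14 copper and zinc genes 8 departed negatively and 1 positively (20.1% of all genes did). In 3 further lists the negative ones were 23 of 35 genes for glucan, chitin and cell separation (median −0.64), 16 of 27 sterol genes (median −0.38) and 15 of 32 cell cycle genes (median −0.30). The nitrogen list had a median of −0.60. Members of the 3 further lists were mostly not in a class. Of these, gas1, adg2, eng1 and slp1 were in masking, spa2 was in synergy, and no sterol gene was in any of the 3 classes. Without asp1-H397A replicate 2, 1 of the cell wall genes was in masking. The endoglucanase gene eng1, which splits the septum, stood at 554 to 753 CPM in the triple mutant, 525 to 631 CPM in ssu72-C13S, 807 to 890 CPM in asp1-H397A and 300.3 to 335 CPM in WT (departure −1.28, SE 0.149, edgeR adjusted p 1.96e-05).

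Lists close to the lesions themselves departed about as often as all genes (20.1% positive and 21.8% negative) and by under 2-fold. Of 23 genes for RNA 3′ processing and transcription termination, the machinery Ssu72 belongs to, 6 departed positively (3 without ssu72-C13S replicate 1) and 4 negatively, none by 2-fold, and the largest were 0.79 and −0.86. Of 7 genes of inositol polyphosphate and pyrophosphate metabolism, kcs1 departed by 0.60 (edgeR adjusted p 7.59e-05), and aps1 and ipk1 negatively. The aps1 gene is deleted in the triple mutant only, so its negative departure follows from the design and says nothing about the list. Amino acid synthesis (16 positive and 11 negative of 50), histones (1 and 2 of 12), thiamine genes (4 and 1 of 10) and heterochromatin factors (1 and 4 of 22, or 6 and 6 without the libraries that stood apart) had 0 genes with a 2-fold departure.

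Non-coding RNAs took a larger share of the 2-fold departures than of all genes, in both directions. They made up 40.6% of reversal, 36.4% of synergy, 43.1% of masking and 30.7% of unclassified genes, against 17.7% of genes tested, and of the 1118 tested as a list 21.0% departed positively and 16.6% negatively. Low levels move with this: the median masking gene had 5.34 CPM. The part of abundance in these shares was not tested. Small nucleolar and nuclear RNAs had 10 positive and 6 negative departures among 36 (20.1% and 21.8% of all genes), but the libraries were poly(A)-selected, so their levels count only molecules captured that way. Some genes with a 2-fold departure (9.45% of genes tested) were neighbours. In the order of all annotated genes, tested or not, 75 pairs were adjacent. Of these 60 shared the sign and 30 the class, and 8 runs of 3 or more genes shared a sign. Whether this exceeds the number that random placement would give was not tested. The longest run was SPNCRNA.780 to SPNCRNA.784, 5 non-coding RNAs with departures from 1.48 to 2.60 in all 3 classes, and another was urg2, urg3 and urg1, all in masking. Of the genes described above, rrk1, SPNCRNA.944, SPNCRNA.1298, SPNCRNA.1276, ssd2, SPCC663.08c, gar2, tgp1, SPCC576.17c, ssa1, zrt1, obr1, caf5, rip1, put4, pfl3, pfl8, slp1, cig2, asp1 and aps1 overlap a gene on the opposite strand; the library kit was stranded, but whether counting used the strand is not given in the sources used here, so these counts are uncertain.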

How the data were processed

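Poly(A)+ RNA was extracted with hot acid phenol, made into libraries with a stranded Illumina kit and sequenced paired-end, per the labels' protocols. HISAT2 2.1.0, SAMtools, HTSeq 0.10.0, DESeq2 and the build ASM294v2 are named in the submitters' processing notes. The deposited table holds raw counts per gene for all 12 libraries, in which 1 repeated identifier was dropped, leaving 6986 genes; 320 had 0 counts. The reference at hand is of another build, so it gave only names, products, gene order and overlaps (6833 identifiers matched by locus tag, 13 by synonym, 140 not matched), and no coordinates or sequences are printed.

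Counts were fitted in edgeR 4.0.16 (R 4.3.3, limma 3.58.1) with TMM scaling, filterByExpr at a minimum count of 10 and 1 coefficient per genotype. Quasi-likelihood tests were adjusted by Benjamini-Hochberg over all 6189 genes, with a threshold of 0.05, and class members also needed a 2-fold departure. The additive level is the WT mean times both fitted single-mutant changes. Named genes were, in each class and direction, the 5 largest departures with a mean of at least 5 CPM, up to 4 genes per function list called at 2-fold, and pho1, pho84, tgp1, prt2, aps1, asp1 and ssu72. Other genes were picked knowing their values, as was a list of Pap1 targets. The members and the 35 function lists were chosen with earlier results of these data known; 24 of 540 list names were not found. The procedure was tested on simulated data. Alternatives were 20 other fits, among them DESeq2 1.42.0, other scalings and filters, a replicate block and leaving out libraries, and other thresholds. All p-values in the text are adjusted unless called unadjusted. The departure and the single contrasts share the WT libraries, so no correlation between them is given.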

Additional observations from a re-analysis of the deposited data

Results flagged for a closer look

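In 18 of the genes named by class, the ssu72-C13S change was called in opposite directions with and without the asp1-H397A and aps1∆ lesions, that is, in the triple mutant set against asp1-H397A, and in ssu72-C13S set against WT. The departure is the test of that difference. These genes were named for the size of their departure, so the selection favours opposite calls. Of all 6189 genes tested, 520 had such opposite calls.

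Among reversal genes the departures were 3.33 for pho1, 2.99 for rrk1, 2.83 for SPNCRNA.944, 2.69 for ecl3 and 2.60 for pho84 in the positive direction. In the negative direction they were −3.33 for SPNCRNA.1298, −2.41 for SPNCRNA.1523, −2.35 for ssd2 and −2.13 for hsp16. Among synergy genes they were 1.64 for gar2, 1.62 for spa2, 1.60 for tgp1, −2.45 for SPCC576.17c, −2.42 for SPCP20C8.02c and −2.28 for ssa1. Among masking genes they were 2.45 for SPAC2H10.01, 2.19 for SPBC1685.17 and 2.07 for SPNCRNA.888. SPAC2H10.01 stood at 210.0, 242 and 229 CPM in the triple mutant, 62.4, 62.7 and 58.6 CPM in ssu72-C13S, 137, 143 and 104 CPM in asp1-H397A, and 188, 220.0 and 161 CPM in WT. The triple mutant and WT libraries overlapped, while both single mutants lay below them.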

How the results depend on the processing

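The fold minimum set the size of the classes and, for some genes, the class. Of the 151 synergy genes, 54 fell in another class at 1.5-fold. At 1.5-fold, 1449 genes departed, with 170 in reversal, 267 in synergy, 675 in masking and 337 unclassified; with no fold minimum, reversal held 455, synergy 294 and masking 1709. Leaving out 1 library at a time, calls of a departure ran from 2212 to 3443, the highest without asp1-H397A replicate 3, and departures of 2-fold from 546 to 702. Reversal ran from 54 to 72 genes, synergy from 136 to 176, masking from 232 to 290 and unclassified from 94 to 164. The positive share of calls was 47.9%, against 54.4% under upper-quartile scaling (1445 positive and 1211 negative), which moved the median of all genes to 0.09, and 54.2% without asp1-H397A replicate 3. Replicate numbers did not pair the libraries: deviations of same-numbered libraries correlated between −0.668 and 0.577, and 5 of 18 pairs exceeded 0.1. Some deviations were shared between genotypes under other numbers. The libraries that stood apart, asp1-H397A replicate 3 and triple mutant replicate 1, correlated at 0.818. Replicates 1 and 2 of asp1-H397A correlated with triple mutant replicates 2 and 3 at 0.504 to 0.577. A block by replicate number does not remove such a pattern, and its source was not tested. With a replicate block 2453 genes departed, with 62 in reversal, 151 in synergy and 250 in masking. Of the departures of the 87 named genes under the 20 other fits, 3 lost their call, 1 of ssu72 and 2 of SPAC750.01 (adjusted p 0.0882 without both libraries that stood apart), and 0 changed sign. DESeq2 called 1325 positive and 1317 negative departures. Low counts limit genes whose additive level lies under 0.130 CPM.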

Other observations

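Sulfate uptake and meiotic genes are given here as values. The sulfate transporter genes sul1 and sul2, chosen after their values were seen, were in synergy with departures of −1.05 (SE 0.141) and −1.21 (SE 0.136). For sul2 the levels were 19.7, 23.9 and 23.1 CPM in the triple mutant, 62.3, 58.0 and 53.3 CPM in ssu72-C13S, 44.7, 43.0 and 38.4 CPM in asp1-H397A, and 49.9, 46.4 and 45.2 CPM in WT. The triple mutant libraries were the lowest of all 12. The meiotic gene mcp7 stood at 7.06, 3.36 and 4.15 CPM in the triple mutant, 0.755, 0.942 and 0.972 CPM in ssu72-C13S, 0.823, 0.649 and 0.596 CPM in asp1-H397A, and 1.31, 0.880 and 0.698 CPM in WT. It was in synergy (departure 2.96, SE 0.482, edgeR adjusted p 3.00e-04), with its highest value in the triple mutant library that stood apart. Over all genes 21.8% departed negatively and 20.1% positively. Among the remaining lists, 42.9% of 184 transporter genes departed negatively and 19.6% positively. Of 44 proteasome genes 13 (29.5%) departed negatively and 1 positively, or 23 and 4 without both libraries that stood apart. Of 48 subtelomeric genes 14 (29.2%) departed in each direction, with 7 of these 48 in reversal, 4 in synergy and 10 in masking.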
